A study of Mus musculus with 6 samples.

Results

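The guanylate-binding proteins examined here are Gbp2, Gbp3, Gbp4, Gbp5, Gbp6, Gbp7, Gbp8, Gbp9 and Gbp10, 9 of the 55401 mouse genes in the deposited count table, chosen by gene symbol. They were proposed with the difference between the study's groups already known, so their levels are described here without a test. RNA came from ADC106, a mouse angiosarcoma cell line (a malignant tumour of vessel-lining cells), 3 days after transfection with 12.5 nM of a mimic, which is a synthetic double-stranded RNA made to act as a microRNA. The 3 control libraries received a mimic labelled NC and carry the genotype label WT, and the other 3 received an miR-497 mimic and are labelled as overexpressing miR-497. All 6 libraries therefore come from transfected cells of 1 line, and untransfected cells were not analysed here. The labels do not say whether libraries of a group came from separate cultures, so p-values measure only the spread between these libraries, which may be technical.

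Guanylate-binding proteins are large GTPases of the dynamin superfamily that interferons induce strongly, with interferon gamma the classical inducer. They bind to the vacuoles and surfaces of intracellular bacteria and parasites, form coats there and open the way for other defence proteins, among them the immunity-related GTPases and the caspases of the inflammasome. Several carry a lipid tail added by prenylation that anchors them to membranes, and their genes answer to transcription factors of interferon signalling, among them Irf1, Stat2 and Irf9. In endothelial cells, guanylate-binding proteins are known as markers of an inflammatory state.

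In the cells that received the NC mimic the family was present mainly as Gbp3, Gbp7 and Gbp2, and with the miR-497 mimic the summed level of the 9 members was 5.35-fold lower. In CPM, which are counts scaled to a common library size with TMM factors, NC libraries 1 to 3 had sums of 497, 522 and 453. The miR-497 libraries had sums of 97.7, 91.4 and 85.9 CPM. The 2 groups did not overlap. The means were 491 ± 35.3 and 91.7 ± 5.90 CPM (SD, n = 3 each). In bulk RNA, fewer cells with a transcript and less of it per cell cannot be told apart.

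The genes lie in 2 clusters of the GRCm38 genome. Gbp5, Gbp7, Gbp3 and Gbp2 lie in this order on the plus strand of chromosome 3, from 142493978 to 142638008, with the non-member Gbp2b between the last pair. Gbp8, Gbp9, Gbp4, Gbp10 and Gbp6 lie on the minus strand of chromosome 5, in a cluster from 105014150 to 105346472 that ends with the non-member Gbp11, annotated as a polymorphic pseudogene. The longest transcripts of 8 members have 11 exons and that of Gbp8 has 10. Coding sequences of the members shared 63.33% to 78.05% of aligned positions within the chromosome 3 cluster (6 pairs), 77.57% to 98.37% within the chromosome 5 cluster (10 pairs) and 59.41% to 73.81% between clusters (20 pairs). The closest pair was Gbp6 and Gbp10, at 98.37%.

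Promoter sequences were at hand for the 4 members on chromosome 3, which hold most of the family's counts, and they are shown because interferon factors bind such regions. The Gbp5 start lies inside the gene span given above. Each runs from 250 bases before to 50 bases after a RefSeq start (GRCm38.p6), 5′ to 3′ on the plus strand. Capitals mark matches to the core of the interferon-stimulated response element (ISRE, bound by Irf factors), searched on both strands as GAAA, any 2 bases, GAAA, and to the gamma-activated site (GAS), searched as TTC, any 3 bases, GAA, which reads the same on both strands.
Gbp5, chr3:142496684-142496983: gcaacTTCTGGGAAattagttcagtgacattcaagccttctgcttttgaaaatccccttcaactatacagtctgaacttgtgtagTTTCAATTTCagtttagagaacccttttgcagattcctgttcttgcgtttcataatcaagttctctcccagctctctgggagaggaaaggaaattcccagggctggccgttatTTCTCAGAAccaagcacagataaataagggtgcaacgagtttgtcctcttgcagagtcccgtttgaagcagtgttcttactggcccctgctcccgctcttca
Gbp7, chr3:142530086-142530385: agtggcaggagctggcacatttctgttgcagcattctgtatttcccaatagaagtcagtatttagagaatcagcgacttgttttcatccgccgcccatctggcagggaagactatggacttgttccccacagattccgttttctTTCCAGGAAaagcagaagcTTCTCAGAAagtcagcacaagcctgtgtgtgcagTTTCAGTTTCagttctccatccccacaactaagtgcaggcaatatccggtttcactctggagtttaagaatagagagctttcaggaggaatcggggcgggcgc
Gbp3, chr3:142559794-142560093: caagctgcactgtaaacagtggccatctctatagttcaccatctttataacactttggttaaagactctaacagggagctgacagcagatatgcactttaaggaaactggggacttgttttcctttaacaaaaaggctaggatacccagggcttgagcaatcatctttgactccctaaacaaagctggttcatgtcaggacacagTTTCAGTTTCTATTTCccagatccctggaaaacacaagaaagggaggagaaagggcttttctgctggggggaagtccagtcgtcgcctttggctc
Gbp2, chr3:142620413-142620712: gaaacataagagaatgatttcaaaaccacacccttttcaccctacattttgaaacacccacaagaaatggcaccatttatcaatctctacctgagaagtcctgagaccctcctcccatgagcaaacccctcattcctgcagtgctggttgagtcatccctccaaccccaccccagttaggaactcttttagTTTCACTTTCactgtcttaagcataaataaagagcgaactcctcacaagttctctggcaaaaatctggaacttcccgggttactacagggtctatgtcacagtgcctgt

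All 4 promoters held at least 1 ISRE core, whereas 3.44% of 32851 promoters of the same length in the RefSeq table held one. In each case the match lay on the strand opposite to the gene, so it appears in the sequences as TTTC, 2 bases, TTTC. The match started 59 bases before the transcription start in Gbp2, 53 in Gbp7 and 165 in Gbp5. Gbp3 held 2 overlapping matches, from 45 and 39 bases before the start, and they form its single block of capitals. A second listed start of Gbp3 further downstream had no match. The GAS pattern was found in Gbp5 (245 and 52 bases before the start) and in Gbp7 (106 and 87 bases before the start) and in 8.30% of all promoters. Gbp2 and Gbp3 had no GAS match in these windows. Only 0.454% of all promoters held both patterns, as Gbp5 and Gbp7 did. A match to these letters is a description and not a measured binding site.

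The other sequence that bears on this design is that of the transfected microRNA. The mature mouse miR-497a-5p is listed in RefSeq as follows, with the seed (bases 2 to 8) in capitals; the labels do not give the sequence of the mimic.
mmu-miR-497a-5p, chr11:70234730-70234751: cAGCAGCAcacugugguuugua

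None of the 9 members had a site for this seed in the longest 3′ UTR of its GENCODE M21 transcripts, where TGCTGCT or GCTGCTA counted as a site. Of all 21039 genes with an annotated 3′ UTR, 23.4% had one. The searched 3′ UTRs ran from 515 bases in Gbp2 to 3575 bases in Gbp7. The shorter 6-base match GCTGCT was found among the members only in Gbp7. The non-member Gbp2b did have a site of the longest kind, at base 872 of its 974-base 3′ UTR, shown with its flanks and with the paired bases and the following A in capitals.
Gbp2b site: ttttatctttctttTGCTGCTAtgacatg

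How far each gene's reads can be told from those of its relatives differed widely. The handling of reads that align to several places and the strand setting are not given in the sources used here, so the longest transcripts were cut into words of 50, 100 and 150 bases and compared with all GENCODE M21 transcripts. None of the 100-base words of Gbp2 or Gbp5 occurred in another gene, and 0.93% of those of Gbp3 did, shared with Gbp7. For Gbp8 the share was 3.81%, for Gbp4 2.88% and for Gbp9 2.01%. Gbp7 shared 10.2% of its words, nearly all with Gm43802, a gene model that covers 11.35% of its exon bases on the same strand and was listed at 0 in all libraries. Gbp6 shared 82.9% and Gbp10 70.9% of their words. The partners were each other and Gm43302, an annotated gene that covers 29.0% of the exon bases of Gbp6 and 46.3% of those of Gbp10 and had 0 to 5 counts per library.

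**Figure D1:**
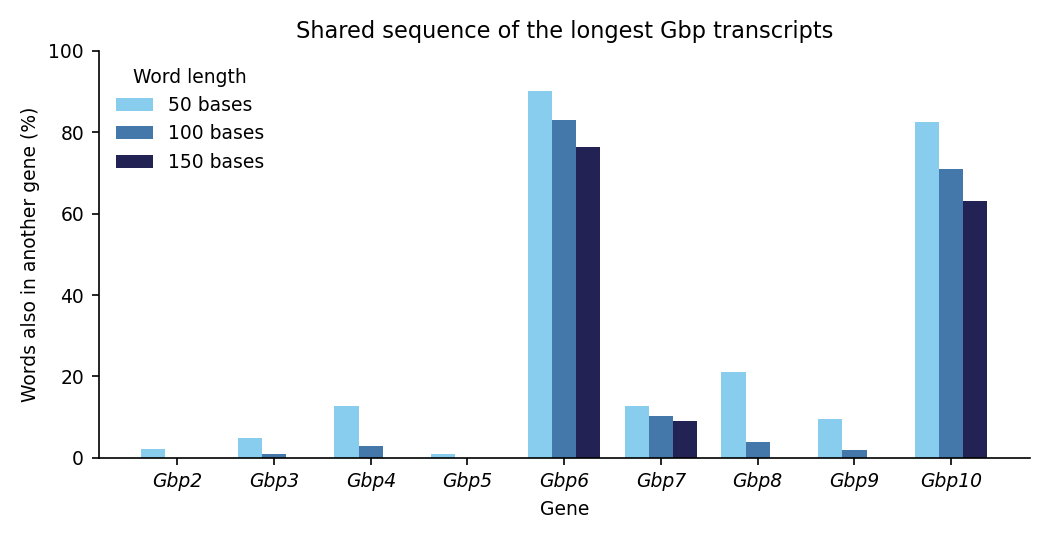
Share of the words of 50, 100 and 150 bases in the longest transcript of each member (percent, vertical axis) that also occur in a transcript of another gene. Gbp6 and Gbp10 share most of their 100-base words (82.9% and 70.9%), while Gbp2 and Gbp5 share none.

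The values of Gbp6 and Gbp10 are therefore uncertain, and whether shared reads lowered their counts was not tested. Gbp10 was listed at 0 in all 6 libraries. Gbp9 was listed at 0 in all 6 libraries as well, although only 1.16% of its exon bases lie under other genes and 2.01% of its 100-base words are shared. A count of 0 allows up to 3 counts, or 0.0821 to 0.119 CPM depending on the library, for counting error only. Map1lc3b, a gene of the autophagy machinery that cells use widely, was also listed at 0 throughout, so a listed 0 in this table is not read as absence. Of all 55401 genes, 31329 were listed at 0 in every library.

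Total counts per library ran from 25777676 to 36159499. No 2 libraries matched within sampling noise, with a chi-square per degree of freedom of 6.30 to 9.44 within groups and 70.1 to 85.2 between groups. Endothelial markers such as Pecam1 and Cdh5 summed to 9463 to 10163 CPM in NC and 8989 to 9518 CPM in miR-497 libraries, and all 10 were detected. These sums hold moves both ways in mean CPM (NC, then miR-497). Pecam1 (3552 and 2469), Eng (897 and 685) and Flt1 (229 and 173) were lower with miR-497. Cdh5 (2167 and 2482), Emcn (373 and 763), Tek, Tie1, Erg and Vwf were higher, and Kdr was level (1351 and 1350). Of 6 macrophage markers, Itgam was at 0 and the sum was 9.52 to 10.7 CPM in NC and 15.8 to 21 CPM in miR-497 libraries, mostly from Cd68. Of 6 lymphocyte markers, Cd3e was at 0 in all libraries and none reached 10 counts. The 6 fibroblast markers summed to 279 to 300 CPM in NC and 436 to 523 CPM in miR-497 libraries, with Lum at 0 and Dcn at 4 counts or fewer. Within that list the mean levels of Col1a1 (61.7 and 110 CPM) and Col1a2 (129 and 286 CPM) were higher with miR-497, while Pdgfra had 43.4 and 46.6 CPM and Pdgfrb 52.7 and 40.8 CPM. Mitochondrially encoded genes took 2.03% to 2.15% of the counts in NC and 2.94% to 3.77% in miR-497 libraries. The part of these differences in the results below was not tested.

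Gbp3 was the most abundant member in NC libraries. It had 6644, 7701 and 4821 counts there and 606, 712 and 600 counts with miR-497, or 200, 211 and 171 CPM against 24.1, 22.4 and 19.7 CPM. All NC libraries lay far above all miR-497 libraries, and 11.4% of the mean NC level was left.

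Gbp2, a prenylated member known to coat pathogen vacuoles, followed the same pattern. It had 106, 115 and 98.4 CPM in NC libraries and 19.2, 16.3 and 15.2 CPM with miR-497, without overlap. Its counts were 3520, 4215 and 2771 in NC and 484, 519 and 463 in miR-497 libraries.

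Gbp7 was the steadiest member between replicates. It had 151, 158 and 153 CPM in NC libraries and 34.3, 35.4 and 34.0 CPM with miR-497, so its coefficient of variation was 2.36% in NC and 2.22% in miR-497 libraries. The groups lay far apart, and 22.5% of the NC level was left.

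Gbp5, a prenylated member known to promote inflammasome assembly, was less abundant. It had 10.3, 8.38 and 7.45 CPM in NC libraries and 0.557, 1.10 and 1.44 CPM with miR-497. The counts behind these values were 342, 306 and 210 in NC but 14, 35 and 44 in miR-497 libraries, so its level with miR-497 rests on few reads and varied more (coefficient of variation 43.2%).

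Gbp8 stood apart on chromosome 5 as the most abundant member there. It had 931, 1030 and 600 counts in NC libraries and 479, 486 and 454 with miR-497, or 28.1, 28.2 and 21.3 against 19.0, 15.3 and 14.9 CPM. The groups did not overlap, but NC library 3 came close to miR-497 library 1, and 63.5% of the mean NC level was left.

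The remaining members of the chromosome 5 cluster were near the limit of detection. Gbp4 had 26, 23 and 32 counts in NC and 7, 22 and 15 in miR-497 libraries, or 0.784, 0.630 and 1.14 CPM against 0.278, 0.692 and 0.492 CPM. The groups overlapped, since miR-497 library 2 lay above NC library 2. Gbp6 had 23, 34 and 14 counts in NC and 4, 6 and 7 in miR-497 libraries, or 0.693, 0.931 and 0.497 CPM against 0.159, 0.189 and 0.230 CPM. These groups did not overlap.

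**Figure D2:**
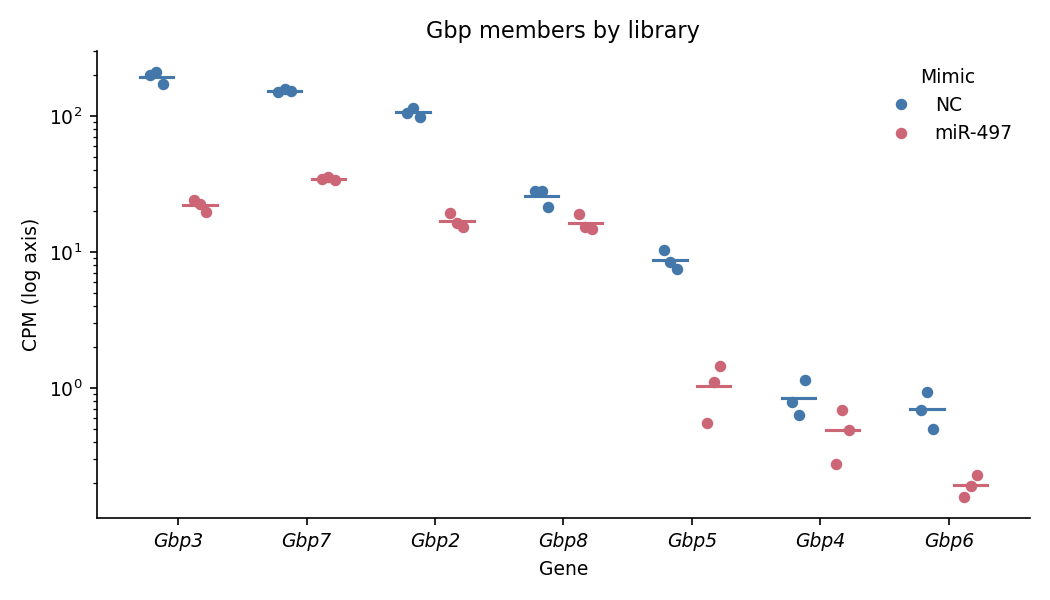
CPM (log axis) of the 7 members with counts, with 1 point per library and a line at the mean of 3. The groups do not overlap for Gbp3, Gbp7, Gbp2, Gbp8, Gbp5 and Gbp6, and overlap for Gbp4.

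In all, 6 of the 9 members had each miR-497 value below each NC value, Gbp4 overlapped and Gbp9 and Gbp10 were listed at 0. Among all 14661 genes tested, 29.6% had each miR-497 value below each NC value. The members were proposed from this contrast, so nothing is read from their count. NC library 3 was the lowest NC library for 5 of the 7 members with counts, the exceptions being Gbp4 and Gbp7. The 2 relatives outside the list were also scarce. Gbp2b had 21, 15 and 9 counts in NC and 4, 8 and 3 in miR-497 libraries, without overlap in CPM. Gbp11 had 18, 29 and 9 against 11, 11 and 5 counts, with overlap.

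Levels of different genes were compared per length, as CPM per kilobase of the longest transcript. In NC libraries the order was Gbp3 at 72.4 ± 7.66, Gbp2 at 42.4 ± 3.38, Gbp7 at 27.4 ± 0.646, Gbp8 at 10.5 ± 1.6 and Gbp5 at 2.85 ± 0.477 CPM per kilobase (SD, n = 3). These neighbours in the order did not overlap in any library. Gbp6 and Gbp4 came last, at 0.271 ± 0.0834 and 0.187 ± 0.0572 CPM per kilobase, and overlapped each other.

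With miR-497 the levels per length of the 4 most abundant members lay closer together. Gbp3 was at 8.22 ± 0.832, Gbp2 at 6.72 ± 0.833, Gbp8 at 6.67 ± 0.933 and Gbp7 at 6.16 ± 0.136 CPM per kilobase (SD, n = 3), and neighbours in this order overlapped. Gbp8, the lowest of the 4 in each NC library, overlapped with Gbp2, Gbp3 and Gbp7 in miR-497 libraries. The ratio of the highest to the lowest of these 4 genes was 6.54, 6.86 and 7.37 in the NC libraries and 1.47, 1.34 and 1.22 in the miR-497 libraries. With the union of all exons as the length, the order in NC was kept and the ratio of group means was 7.92 in NC and 1.42 with miR-497. On that length, however, Gbp8 no longer overlapped with the others in miR-497 libraries. It had 4.32 to 5.53 CPM per kilobase of exon union there, below Gbp7 (6.05 to 6.31), Gbp2 (6.03 to 7.65) and Gbp3 (6.03 to 7.38), which still overlapped each other. The 4 genes were picked after their values were seen, as those with a mean of at least 10 CPM per kilobase of the longest transcript in NC libraries. On the exon union Gbp8 had a mean of 7.51 there, under that cutoff.

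**Figure D3:**
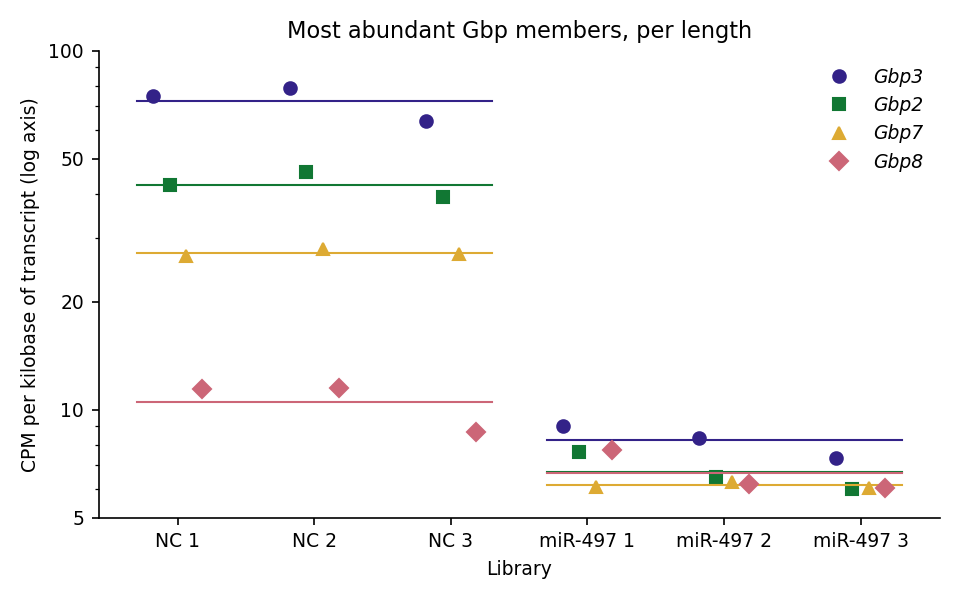
CPM per kilobase of the longest transcript (log axis) of the 4 most abundant members in each library, with 1 point per library and a line at each group's mean. The genes span 6.54-fold to 7.37-fold in NC libraries and 1.22-fold to 1.47-fold in miR-497 libraries.

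The make-up of the family's counts differed accordingly. Gbp3 made up 39.5% ± 1.45 of the members' counts in NC and 24.0% ± 0.973 in miR-497 libraries (SD, n = 3). Gbp8 made up 5.25% ± 0.487 in NC and 17.9% ± 1.46 in miR-497 libraries. The share of Gbp7 was 31.4% ± 1.99 and 37.8% ± 2.38, and that of Gbp2 21.7% ± 0.376 and 18.4% ± 1.12. By cluster, the 4 members on chromosome 3 summed to 463 ± 31.6 CPM in NC and 74.6 ± 4.0 CPM with miR-497, leaving 16.1% of the NC level. The 5 members on chromosome 5 summed to 27.4 ± 3.88 and 17.1 ± 2.10 CPM, leaving 62.3%, and most of that sum is Gbp8.

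The fitted log2 fold changes (miR-497 over NC, edgeR, on 7 members) differed widely between members. Those furthest from 0 were -3.14 (SE 0.0859) for Gbp3, -3.05 (SE 0.260) for Gbp5 and -2.66 (SE 0.0886) for Gbp2. Gbp7 had -2.15 (SE 0.0569), the smallest error of the family. Gbp6 had -1.86 (SE 0.521) and Gbp4 had -0.77 (SE 0.466). Gbp6 passed the filter on low counts only through the NC libraries, a route open only to genes higher there, and Gbp4 reached the minimum in 3 NC and 2 miR-497 libraries. Gbp8 had -0.66 (SE 0.118), and the non-member Gbp11 had -0.83 (SE 0.545). The median over these 7 members was -2.15, beside -0.02 over all genes tested; it describes genes chosen from this contrast and supports nothing.

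**Figure D4:**
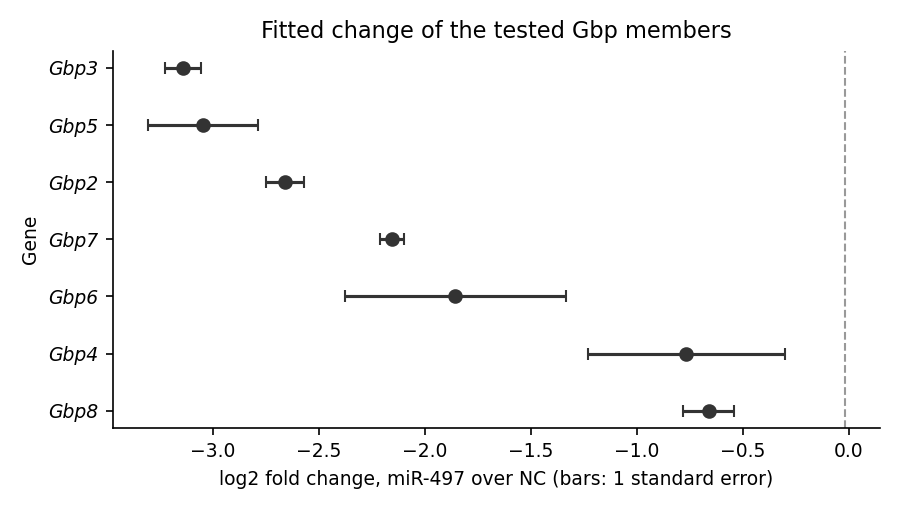
Fitted log2 fold change (miR-497 over NC) of the 7 tested members, with bars of 1 standard error and a dashed line at the median of all tested genes (-0.02). The 4 members on chromosome 3 lie between -3.14 and -2.15. On chromosome 5, Gbp8 and Gbp4 lie at -0.66 and -0.77, and Gbp6 lies at -1.86 with a wide error (SE 0.521).

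Genes next to the clusters were looked up by position, within 500 kb of the outermost Gbp genes. On chromosome 3, 6 such genes were tested, of which 2 were lower and 0 higher by the edgeR quasi-likelihood test (threshold 0.05 after Benjamini-Hochberg adjustment over all genes). The background over all tested genes was 26.0% lower and 23.8% higher. Kyat3, a kynurenine aminotransferase gene at 142701051 to 142746870 on the Gbp2 side of the cluster, was lower, from 4.61 ± 0.577 to 0.945 ± 0.0924 CPM (SD, n = 3; a log2 change of -2.29 with SE 0.252, edgeR adjusted p = 1e-06). Pdlim5, on the other side, had -0.16 (SE 0.050, edgeR adjusted p = 0.0159), and it did not pass without NC library 2 (-0.16, edgeR adjusted p = 0.0788), without NC library 3 (-0.13, edgeR adjusted p = 0.0904) or without miR-497 library 3 (-0.14, edgeR adjusted p = 0.0681). With upper-quartile scaling it did not pass either (-0.11, edgeR adjusted p = 0.0552). Gtf2b and Pkn2 did not pass, with -0.05 and -0.14. On chromosome 5, 7 neighbours could be tested, of which 0 fell and 3 rose. These 3 were Lrrc8b, Lrrc8c and Lrrc8d, subunits of a volume-regulated anion channel, with log2 fold changes of 0.58, 0.34 and 0.40. The names in this paragraph were picked with these values in view.

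The pathway that drives Gbp genes was followed through a list of 25 interferon ligands, receptors, kinases and transcription factors, of which 18 could be tested. Of these, 9 were lower, 5 higher and 4 did not pass (edgeR adjusted p under 0.05, beside backgrounds of 26.0% lower and 23.8% higher), with a median log2 fold change of -0.28. The list holds opposing steps of one pathway, and its members moved in both directions. This list and those below were chosen with earlier results of these data known. Their counts and p-values are therefore descriptions and not independent support.

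Among the ligands, Ifng, Ifnl2 and Ifnl3 were listed at 0 in all libraries. Ifnb1 had 9, 26 and 4 counts in NC and 0, 7 and 0 in miR-497 libraries, and Ifna4 had 2, 11 and 5 against 0, 0 and 0. Both were too low to be tested. The receptor subunits were not among the lower genes. Ifnar1, Ifnar2, Ifngr1, Ifngr2 and Ifnlr1 were the 5 higher genes, with log2 fold changes of 0.18, 0.37, 0.30, 0.36 and 1.36. Il10rb did not pass (0.03). The call of Ifnar1 was lost without NC library 1 (0.12, edgeR adjusted p = 0.146), NC library 2 (0.16, edgeR adjusted p = 0.123) or miR-497 library 2 (0.15, edgeR adjusted p = 0.0878). That of Ifnlr1, with 12 to 58 counts, was lost without miR-497 library 3 (1.05, edgeR adjusted p = 0.0955).

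Of the receptor-bound kinases, Jak2 fell, with 167 ± 4.66 CPM in NC and 84.5 ± 2.58 CPM in miR-497 libraries (n = 3 each, SD; a log2 change of -0.98, edgeR adjusted p = 1.8e-10), whereas Jak1 (-0.05) and Tyk2 (-0.00077) did not pass. Stat2 and several Irf factors were lower. Stat2 had 161 ± 11.8 CPM in NC and 40.5 ± 1.45 CPM with miR-497 (a log2 change of -1.99 with SE 0.0646, edgeR adjusted p = 5.1e-13). Irf9 had -1.21 and Irf3 had -0.51. Irf1, the factor most closely tied to Gbp induction by interferon gamma, fell less, from 58.7 ± 4.32 to 40.5 ± 3.54 CPM (-0.54, SE 0.0793, edgeR adjusted p = 2.5e-05). Irf7, which amplifies type I interferon, had -2.87 (SE 0.0971, edgeR adjusted p = 8.3e-13). Irf2, which represses ISRE sites, did not pass (0.06). Of the feedback inhibitors, Usp18 had -3.51 (SE 0.114, edgeR adjusted p = 5.1e-13) and Socs1 had -0.55. Socs1 did not pass without NC library 2 (-0.43, edgeR adjusted p = 0.133), miR-497 library 2 (-0.44, edgeR adjusted p = 0.103) or miR-497 library 3 (-0.45, edgeR adjusted p = 0.0922). Of the 18 tested genes, 6 had a miR-497a-5p site in the longest 3′ UTR, beside 23.4% of all genes with an annotated 3′ UTR. The 6 were Jak2 and Socs1 with 2 sites each, and Ifnar1, Stat2, Irf1 and Irf3 with 1 each. Irf7, Irf9 and Usp18 had none. Whether these sites bear on the levels was not tested.

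The immunity-related GTPases act beside Gbp proteins at the same vacuoles. Of 10 listed, 7 were tested, 6 were lower and 0 higher (beside 26.0% lower and 23.8% higher over all genes tested), and the median was -2.08. Iigp1 fell from 53.9 ± 8.95 to 1.81 ± 0.575 CPM (a log2 change of -4.89 with SE 0.169, edgeR adjusted p = 1.1e-12). Gm12250 had -3.91 and Irgm2 -2.60. Gvin1, a very large inducible GTPase counted in this list, had -1.52, and Irgq did not pass (0.13). Of the 5 tested genes with a promoter entry, 4 held the ISRE core and 3 the GAS pattern. In the interferon chain, 3 of 15 such genes held the ISRE core and 4 the GAS pattern. Irf7 was among those with neither. Of 5 such interferon gamma targets, 1 held the ISRE core and 1 the GAS pattern. The ATG8, prenylation, inflammasome and dynamin lists below held 0 ISRE cores, and of these only the ATG8 list held GAS patterns (2 of 8). Whether these motifs go with the falls was not tested. Tgtp1 and Tgtp2 were listed at 0. These genes also have close copies, so the split of reads among them is uncertain.

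A list of 15 classical interferon gamma targets was followed as well. Of these, 7 (46.7%) passed the filter on low counts, as did 26.5% of all genes in the table. Of the 7, 3 were lower and 0 higher, beside 26.0% lower and 23.8% higher over all genes tested, with a median of -0.54. The 3 lower genes were Irf1, Socs1 (both also in the list above) and H2-DMb1, which had 41, 36 and 11 counts in NC and 4, 8 and 3 in miR-497 libraries. H2-DMb1 passed the filter on low counts only through the NC libraries, a route open only to genes higher there. Ciita, the switch of class II genes, had 0 to 4 counts per library, and Cxcl10, Cxcl11 and Irf8 were listed at 0. Nos2 did not pass, at 8.57 ± 1.40 and 7.70 ± 0.885 CPM (-0.15).

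Downstream of Gbp proteins, the inflammasome list had 8 tested genes of 12, with 4 lower and 0 higher (beside 26.0% lower and 23.8% higher over all genes tested) and a median of -0.39. Zbp1, a sensor of nucleic acids, fell from 5.59 ± 0.201 to 0.448 ± 0.163 CPM (a log2 change of -3.66 with SE 0.284, edgeR adjusted p = 1.7e-08). The other falls were smaller, and that of Casp4 did not pass without NC library 1 (-0.28, edgeR adjusted p = 0.151) or miR-497 library 2 (-0.45, edgeR adjusted p = 0.0619). Aim2, a sensor of cytosolic DNA, had -0.50 and Casp4, the receptor of bacterial lipopolysaccharide, had -0.49. Ninj1, which ruptures the membrane of dying cells, had -0.41. Casp1 (-0.05) and its substrate Gsdmd (-0.07), a pore former, did not pass. Pycard, an inflammasome adaptor, had 0 to 15 counts per library.

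Enzymes that modify or guide Gbp proteins did not share the large falls. Of 6 prenylation genes, 2 were lower and 0 higher (1 higher with upper-quartile scaling), beside 26.0% lower and 23.8% higher over all genes tested, and the median was -0.08. The lower share, 33.3%, is near that background. These were Rce1 (-0.88) and Icmt (-0.84), which trim and methylate prenylated proteins. The transferase subunits Fnta (0.03), Fntb (-0.15) and Pggt1b (0.10) did not pass. Of 12 genes for ATG8 proteins and their conjugation, which steers Gbp and immunity-related GTPases to vacuoles, 11 were tested: 6 rose and 1 fell (beside 26.0% lower and 23.8% higher over all genes tested), with a median of 0.31. Gabarap rose from 106 ± 3.42 to 276 ± 15.3 CPM (a log2 change of 1.38 with SE 0.0559, edgeR adjusted p = 8.2e-12). Atg16l1 (0.16) did not pass without NC library 1 (0.14, edgeR adjusted p = 0.0911), NC library 2 (0.16, edgeR adjusted p = 0.078) or miR-497 library 3 (0.15, edgeR adjusted p = 0.0513). Map1lc3a had 0.92 and Gabarapl1 had 0.69. The lower gene was Atg4b, a protease that processes ATG8 proteins (-0.26).

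Other large GTPases of the dynamin superfamily gave a mixed picture. All 12 could be tested, of which 6 fell and 3 rose (beside 26.0% lower and 23.8% higher over all genes tested), with a median of -0.30. The share that rose is near its background. The interferon-induced Mx1 and Mx2 had -4.88 (SE 0.358, edgeR adjusted p = 9.2e-09) and -4.28 (SE 0.126, edgeR adjusted p = 1.7e-13). Mx1 had 7, 3 and 9 counts in miR-497 libraries and passed the filter on low counts only through the NC libraries. The atlastins, the closest relatives of Gbp proteins in fold, moved less and in both directions, with Atl1 at 0.88, Atl2 at -0.63 and Atl3 at 0.18. Atl3 did not pass without NC library 1 (0.16, edgeR adjusted p = 0.0647) or NC library 2 (0.14, edgeR adjusted p = 0.129). The mitochondrial fusion and fission GTPases Mfn2 and Dnm1l had -0.70 and -0.51, and Dnm2 had 0.57.

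**Figure D5:**
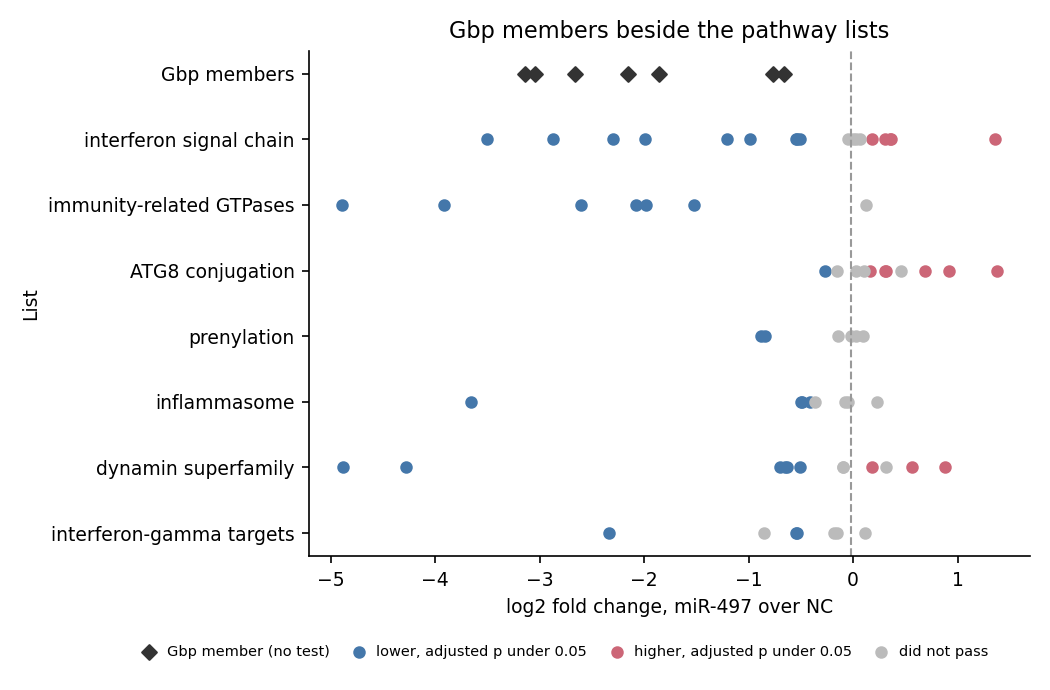
Log2 fold change (miR-497 over NC) of each tested gene of the 7 lists, coloured by its call, with the 7 tested Gbp members as diamonds without a test and a dashed line at the median of all tested genes (-0.02). The immunity-related GTPases run from -4.89 to 0.13, with a median of -2.08, and the ATG8 genes lie around a median of 0.31.

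Finally, genes were sought whose profile over the 6 libraries was nearest the median profile of the 7 tested members. The search covered 10330 tested genes with a mean log2 CPM of at least 2. Likeness was the root mean square difference, on the log2 scale, from the median profile of the 7 members, each taken relative to its NC mean. The 5 nearest genes were Tor3a (0.05), H2-K1 (0.06), Rsad2 (0.08), Irgm1 (0.09) and Parp12 (0.11). Rsad2 encodes viperin and H2-K1 a class I antigen-presenting chain. Tor3a went from 127 ± 15.5 to 28.9 ± 1.47 CPM and H2-K1 from 106 ± 14.6 to 24.3 ± 1.35 CPM (SD, n = 3). In each miR-497 library that median was the value of Gbp7 (-2.16, -2.12 and -2.18). Other members lay far from it on either side, such as Gbp3 (-3.00, -3.11 and -3.29) and Gbp8 (-0.43, -0.74 and -0.78). A fall of the size seen in Gbp7 therefore came with the choice of genes. Among NC libraries the median profile was lowest in NC library 3, so a low value there came with the choice as well. Tor3a, H2-K1, Irgm1 and Parp12 had their lowest NC value there, and Rsad2 had its lowest in NC library 1.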

How the data were processed

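RNA from 3 NC and 3 miR-497 libraries of ADC106 cells was poly(A)-enriched and sequenced, per the labels. The authors deposited raw counts of reads per gene, not normalized, for 55401 Ensembl genes. The submitters' processing notes name STAR 2.5.4b, featureCounts of Subread 1.6.1, edgeR 3.32.1 and GRCm38, with no role or order; the annotation release, strand setting and handling of multiply aligned reads are not given in the sources used here. Symbols came from a table of mouse gene names, by identifier (55141 matched). Counts were tested with edgeR 4.0.16 (R 4.3.3): filterByExpr (minimum count 10, minimum total 15), TMM, quasi-likelihood F-test with group as the only term, 2-sided, Benjamini-Hochberg over 14661 genes, threshold 0.05. The standard error is the log2 fold change divided by the square root of F. CPM uses library totals scaled by TMM; log2 CPM for likeness adds a prior count of 2. The steps were tested on simulated data. Promoters and the microRNA come from RefSeq (GRCm38.p6), and 4 of 9 members had a promoter entry; coding sequences, 3′ UTRs and lengths come from GENCODE M21, with coding sequences aligned end to end by edit distance.

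The members and lists were chosen with earlier results of these data known. Every member is named; of each list, the 3 genes with the largest change among those with a mean log2 CPM of at least 0 are named, as are the 5 genes most like the family; some listed genes are counted but not reported here by name. Others were named after their values were seen. Alternatives were DESeq2 1.42.0 size factors and Wald test, upper quartile, no filter, a mean count of at least 50, limma 3.58.1 voom, a replicate block, each library left out and another gene length.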

Additional observations from a re-analysis of the deposited data

How the results depend on the processing

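The numbers of genes lower and higher with miR-497 were 3817 and 3490, and stayed within 1.5 times these values under all 13 alternatives (3374 to 3995 lower, 3029 to 3998 higher). Of the list counts, that of higher prenylation genes went from 0 to 1 with upper-quartile scaling, and the cause was not tested. The others stayed within 1.5 times their value, with ranges of 8 to 11 lower and 4 to 5 higher for the interferon chain, 3 to 4 lower for the inflammasome, 5 to 7 higher for ATG8 conjugation, 2 to 4 higher for the dynamin superfamily and 2 to 4 lower for interferon gamma targets. The sum of the members was -2.42 on the log2 scale, from -2.47 to -2.37 with 1 library left out and from -2.43 to -2.37 otherwise. All 101 pairs of a tested Gbp gene and an alternative kept their sign. Values of scarce genes moved with single libraries: Gbp4 ran from -1.11 to -0.50, Gbp11 from -1.11 to -0.46 and Gbp5 from -3.35 to -2.78. Gbp4 and Gbp6 were not tested at a mean count of at least 50, since their counts are lower. With the union of all exons as length, Gbp5 was at 1.31 and Gbp6 at 0.119 CPM per kilobase in NC, in place of 2.85 and 0.271. On the same length Gbp3 was at 59.4, Gbp8 at 7.51 and Gbp4 at 0.113, in place of 72.4, 10.5 and 0.187. Gbp2 and Gbp7 kept their values.

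Adding the replicate number to the model as a block gave 3563 lower and 3177 higher genes, of which 6691 were also called without it, and a member sum of -2.42. Atg16l1 (edgeR adjusted p = 0.0516) and Pdlim5 (edgeR adjusted p = 0.0528) then missed the threshold. Atg16l1 also missed it with no filter on low counts (edgeR adjusted p = 0.052). The deviations of same-numbered libraries had correlations of -0.12, -0.035 and -0.13 across genes, and no library correlated best with its own number. The labels do not say whether same-numbered libraries were handled together, and these correlations cannot decide it.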
